A study of Rattus norvegicus with 16 samples.

Results

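ATP-binding cassette (ABC) transporter genes were taken as every gene whose symbol is Abc, a letter from a to g and then a digit, which gave 49 of the 32623 genes counted. Subfamily A held 16 of these members, B 8, C 10, D 4, E 1, F 3 and G 7. ABC proteins share a conserved ATP-binding domain, and most use the energy of ATP to carry lipids, organic anions, drugs, peptides or metabolites across a membrane. Kidney tubule cells are known for members that export conjugated organic anions, urate and xenobiotics, other members sit in mitochondria, peroxisomes or lysosomes, and the proteins of subfamilies E and F carry nothing and act at the ribosome.

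The RNA came from 2 established rat kidney lines, the epithelial line NRK-52E and the fibroblast line NRK-49F. NRK-52E cells sat on permeable filter inserts above NRK-49F cells grown on the plastic of the same wells, so that the medium was shared, and after serum withdrawal the pairs were held for 48 h at pH 7.4 or at pH 6.0. The 4 groups of 4 libraries were therefore NRK-52E at pH 7.4, NRK-52E at pH 6.0, NRK-49F at pH 7.4 and NRK-49F at pH 6.0, all from co-culture. The question was how acidosis changes gene expression in either cell type while the other is present. The labels write the pH as 7 and 6 and the treatment protocol as 7.4 and 6.0, which are the values used here. Cell line and growth support differ together, so their parts in a difference between the lines cannot be told apart. By the study's own account, a few fibroblasts may have adhered to the filter, with very low probability.

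Poly(A) RNA was sequenced as read pairs, and a count is the number of fragments assigned to a gene. The NRK-52E libraries at pH 7.4 (N1, N2, N5 and N6) held 18591104, 20612657, 19673671 and 17760185 counts, and those at pH 6.0 (N3, N4, N7 and N8) held 16844811, 21430646, 23856187 and 20967378. For NRK-49F, the libraries at pH 7.4 (N9, N10, N13 and N14) held 19162294, 21470813, 17518187 and 27607214 counts, and those at pH 6.0 (N11, N12, N15 and N16) held 23872685, 16201084, 34314389 and 34784862. Values of single libraries follow this order throughout. Levels are given as fragments per 1000000 (FPM), a gene's share of the fragments of a library after normalisation. No level was divided by transcript length, so levels compare groups for the same gene and not one gene with another. In bulk libraries, fewer cells of a type and less RNA per cell cannot be told apart.

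The labelled lines were checked against marker genes. Ocln, a tight junction gene, averaged 41.2 FPM in NRK-52E at pH 7.4 and 0 in NRK-49F, and the keratin gene Krt7 averaged 36.7 against 0.463 FPM. The fibroblast markers Pdgfra at 0.286 against 392 FPM, Col1a1 at 23.6 against 6205 FPM and Twist1 at 1.41 against 94.7 FPM marked NRK-49F. Other markers did not follow the labels. Cdh1 averaged 1.62 FPM in NRK-52E at pH 7.4, Epcam reached at most 2 counts in a library and Esrp1 had none, the collagen gene Col3a1 averaged 6221 FPM in NRK-52E against 458 in NRK-49F, and Thy1 had no count in any library. Of proximal tubule markers in NRK-52E, Slc34a1 and Hnf4a had no count and Lrp2 averaged 0.634 FPM at pH 7.4, while the water channel gene Aqp1 averaged 34.4 FPM. Some epithelial and tubule markers were higher in NRK-49F, such as Krt8 at 848 FPM against 430.4 in NRK-52E and Ggt1 at 112 against 1.53 FPM at pH 7.4, and the few counts of Slc34a1 and Hnf4a were all in NRK-49F. The leukocyte marker Ptprc and the endothelial marker Kdr had no count in any library, but the leukocyte marker Cd68 averaged 81.2 FPM in NRK-49F and the endothelial marker Tek 41.1 FPM in NRK-52E, both at pH 7.4.

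Of the 49 members, 47 had a count in at least 1 library, and Abca13 and Abca15 had none. With these included, 7 members never exceeded 3 counts in a library. The filter on low counts passed 34 members in at least 1 comparison, and since a gene could pass through the group in which it is high, the members tested are not the whole family. The 15 tested in no comparison were Abca6, Abca8a, Abca12, Abca13, Abca14, Abca15, Abcb5, Abcb11, Abcc2, Abcc6, Abcc8, Abcc12, Abcg1, Abcg5 and Abcg8. Several of them are known for work in other organs, such as Abcb11, the bile salt pump of the liver, Abcc8, a subunit of the potassium channel of pancreatic beta cells, Abca12 of skin and the sterol transporters Abcg5 and Abcg8 of liver and gut. Abcg1, a sterol exporter, had between 0 and 10 counts per library in NRK-52E but none in NRK-49F. Abcc2, the apical organic anion exporter of the tubule in vivo, had 1 count over the 8 NRK-52E libraries and between 3 and 20 counts in each NRK-49F library.

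Together the members took 0.129% of the counts in NRK-52E at pH 7.4 and 0.143% at pH 6.0 (SD 0.00617 and 0.0185, n = 4). In NRK-49F they took 0.112% at pH 7.4 and 0.136% at pH 6.0 (SD 0.0123 and 0.00634, n = 4). The lowest share was 0.0939%, in N13.

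Summed over subfamilies, the largest ratio of pH 6.0 to pH 7.4 was 4.15 in NRK-52E, for subfamily G, and 2.37 in NRK-49F, for subfamily C. Subfamily C, which holds the organic anion exporters, summed to 181, 199, 219 and 190.2 FPM in NRK-52E at pH 7.4 and 249, 359, 302 and 184 FPM at pH 6.0. In NRK-49F the same sum was 176, 176, 114 and 193 FPM at pH 7.4 and 390.1, 361, 376 and 439 FPM at pH 6.0. The NRK-52E ranges overlapped, because N8 was as low as the pH 7.4 libraries, whereas all NRK-49F libraries at pH 6.0 lay far above those at pH 7.4. Within the C sum, a share of fragments that also depends on transcript length, Abcc4 went from 35.6% to 49.2% in NRK-49F. Subfamily G averaged 5.74 FPM in NRK-52E at pH 7.4 and 23.8 FPM at pH 6.0, of which Abcg4 was 78.9%, and 4.87 and 7.99 FPM in NRK-49F.

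Subfamily A went from 263 ± 17.9 to 191 ± 25.1 FPM (SD, n = 4) in the epithelial line, without overlap, and from 313 ± 38.4 to 299 ± 23.7 FPM in the fibroblast line, with overlap. Subfamily B went from 119 ± 2.45 to 142 ± 9.32 FPM in the epithelial line, while in NRK-49F it went from 342 ± 33.7 to 273 ± 21.4 FPM, where Abcb4 held 66.4% of it at pH 7.4 and 51.2% at pH 6.0. The peroxisomal and lysosomal subfamily D averaged 135 and 162 FPM in NRK-52E and 119.7 and 96.6 FPM in NRK-49F. The ribosome-associated subfamilies were on average larger at pH 6.0 in both lines, E with ratios of 1.87 (NRK-52E) and 1.94 (NRK-49F), and F with 1.58 and 1.24. The F sums of NRK-49F overlapped, with N16 at 245 FPM (pH 6.0) below N14 at 257 FPM (pH 7.4). These sums are shares of fragments and were not tested.

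**Figure D1:**
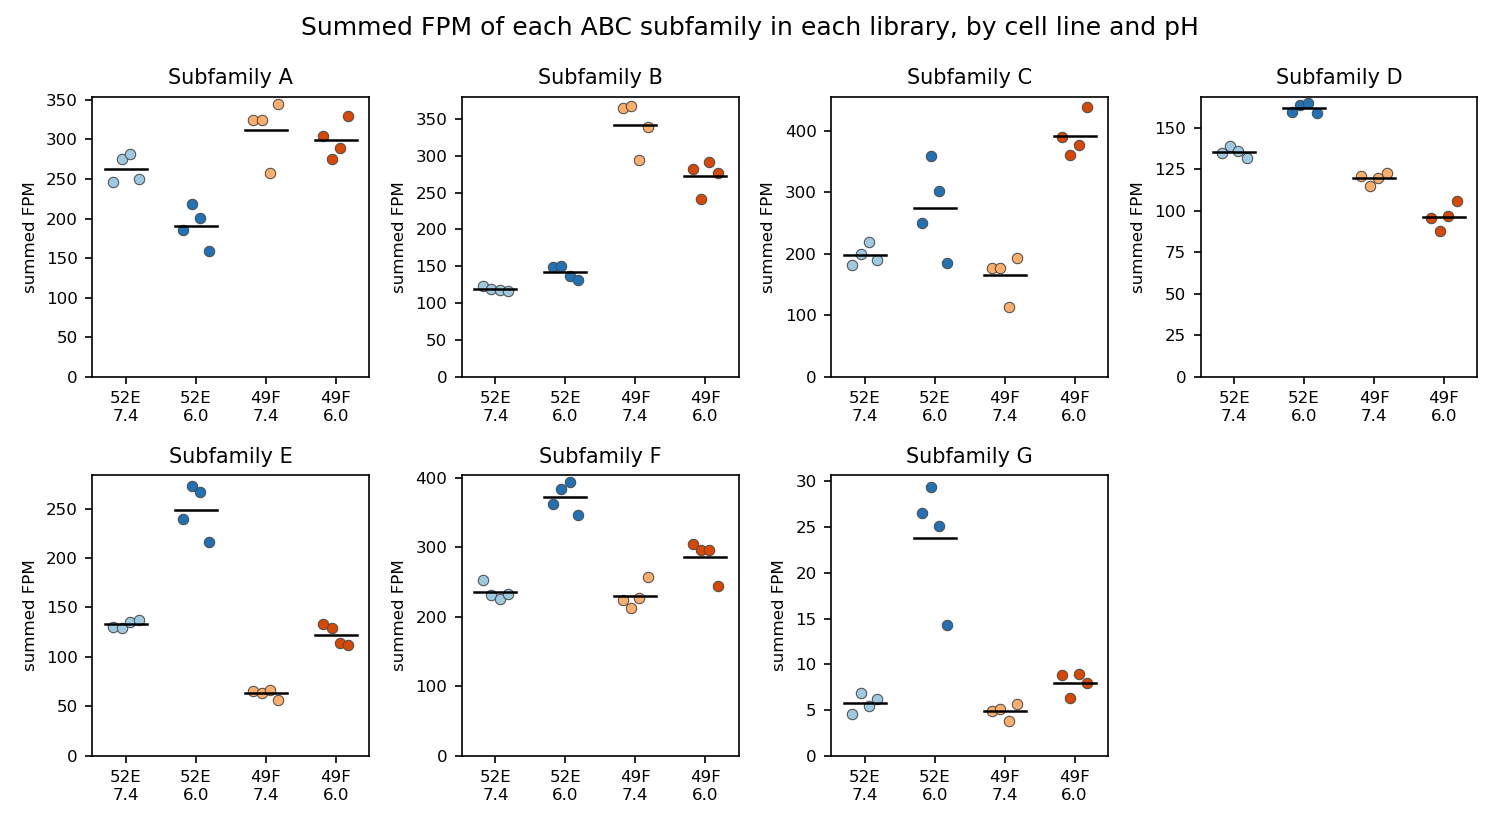
Summed FPM of the members of each subfamily in each of the 16 libraries, with cell line and pH on the horizontal axis, one point per library and the mean of 4 as a line. The C sum of NRK-49F runs from 114 to 193 FPM at pH 7.4 and from 361 to 439 FPM at pH 6.0, and the G sum of NRK-52E from 4.59 to 6.8 and from 14.3 to 29.4 FPM.

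Acid medium shifted the ABC genes of NRK-52E cells in both directions. Among the rises were Abcg4, 16.9-fold, the anion exporters Abcc4 and Abcc3, 4.09-fold and 3.36-fold, the phospholipid transporter Abcb4 and the lysosomal cobalamin transporter Abcd4, and among the falls were the exporters Abcc10 and Abcc5, the mitochondrial Abcb8 and the lipid transporters Abca3 and Abca2. A gene was called where the Benjamini-Hochberg adjusted p over all genes tested was below 0.01 in both edgeR and DESeq2. Of 29 members tested in NRK-52E, 17 were called (58.6%), beside 56.7% of the 13735 genes tested. Of these, 11 rose (37.9%), beside 28.2% of all genes, and 6 fell (20.7%), beside 28.5%. The share called was thus near that of all genes. The median log2 fold change was 0.14 over the members and 0 over all genes, and the median size of change 0.73 and 0.7.

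NRK-49F cells also changed in both directions. Abcc1 rose 4.06-fold, Abcc4 3.25-fold and Abca5 3.15-fold, while Abca8 fell to a level 18.3-fold lower and the peroxisomal transporter Abcd2, the phospholipid transporter Abcb4 and the exporters Abcc5 and Abcc10 fell too. Of 30 members tested, 15 were called (50%), beside 37.8% of the 13339 genes tested. Of these, 8 rose (26.7%), beside 18.4% of all genes, and 7 fell (23.3%), beside 19.4%. The median log2 fold change was 0.29 over the members and 0 over all genes, and the median size of change 0.74 and 0.42.

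The all-gene median depends on the scaling. With library totals in place of TMM factors, it became -0.21 (NRK-52E) and 0.04 (NRK-49F). In NRK-52E, library totals turned the split of calls to 10 higher and 7 lower members, and 37.6% in place of 49.7% of all called genes were then higher. In NRK-49F the split was 9 and 7, with 53.2% in place of 48.7% of all called genes higher. With only the libraries of one second number in the column names, 2 per group, calls were lost, also of members described below, as given in the section on processing.

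**Figure D2:**
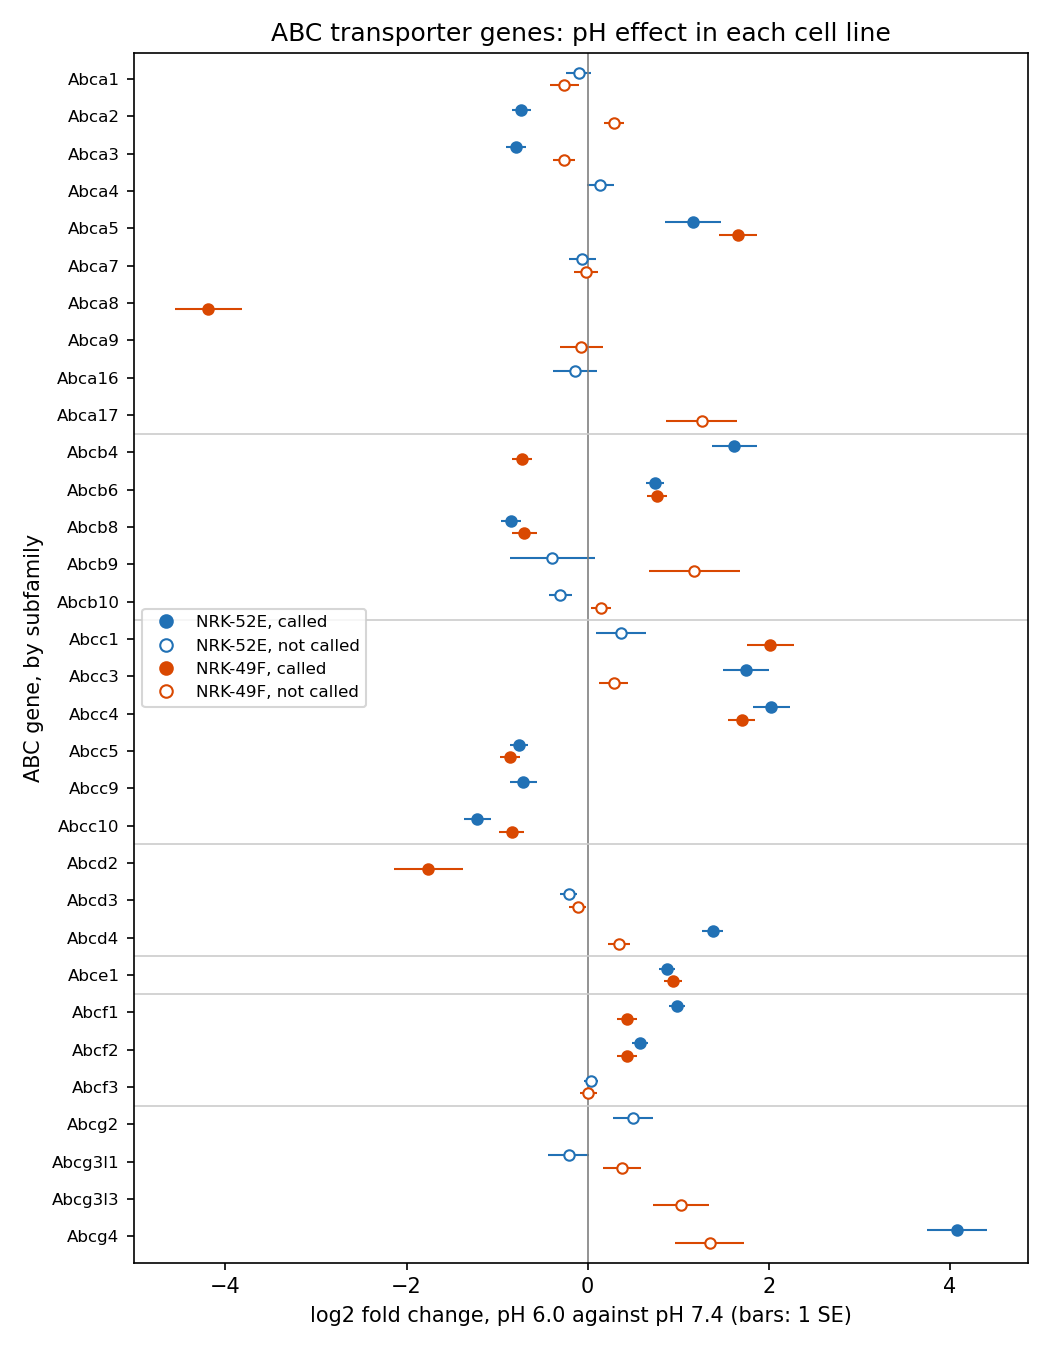
Log2 fold change of the tested members reported here, at pH 6.0 against pH 7.4 (horizontal axis) in NRK-52E (blue) and NRK-49F (orange), by subfamily, with bars of 1 SE and filled points for members called in both edgeR and DESeq2. Abcg4 in NRK-52E at 4.08 and Abca8 in NRK-49F at -4.19 lie farthest from 0, and Abcb4 is called on opposite sides in the lines.

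Several exporters of organic anions in subfamily C changed more than 3-fold. Abcc1 (ENSRNOG00000022305, chromosome 10), also known as MRP1, exports glutathione and its conjugates, including leukotriene C4. In NRK-49F it stood at 38.3, 42.9, 14.9 and 47.4 FPM (pH 7.4) and 158, 143, 136 and 153 FPM (pH 6.0). All 4 libraries at pH 6.0 were high and close together, and N13 was the lowest at pH 7.4. Abcc1 rose (log2 fold change 2.02, SE 0.26, edgeR adjusted p = 4.36e-05), and without N13 the value was 1.77. The call was lost with only the libraries of second number 21, at 2.18. In NRK-52E it stood at 23.52, 30, 27.7 and 21.8 FPM (pH 7.4) and 28.5, 51, 40.2 and 15.8 FPM (pH 6.0). The acid libraries there ranged from the lowest value of all 8, in N8, to the highest, in N4, so the groups overlapped. The difference was not called (log2 fold change 0.37, SE 0.28, edgeR adjusted p = 0.261), but it was called without N8, at a log2 fold change of 0.6 with an edgeR adjusted p of 0.00933, and over all alternatives that adjusted p lay between 0.00933 and 0.787. The difference between the lines in the pH effect was -1.66 (SE 0.42, edgeR adjusted p = 0.00306), so the pH effect was lower in NRK-52E by that estimate.

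Abcc3 (ENSRNOG00000002948, chromosome 10), an exporter of glucuronides and bile acids at the basolateral membrane, behaved the other way round. In NRK-52E it stood at 27.8, 31.1, 35.9 and 27.1 FPM (pH 7.4) and 99.3, 150.1, 115 and 53.9 FPM (pH 6.0). The acid libraries spread widely, with N8 lowest and N4 highest, and none came down to the pH 7.4 libraries. Abcc3 rose (log2 fold change 1.75, SE 0.25, edgeR adjusted p = 9.64e-05), and without N8 the value was 1.96. The NRK-49F values were 20.3, 19.7, 12.51 and 20 FPM (pH 7.4) and 23, 20, 20.54 and 26 FPM (pH 6.0). Those groups overlapped and the difference was not called (log2 fold change 0.29, SE 0.16, edgeR adjusted p = 0.142). The interaction was 1.46 (SE 0.31, edgeR adjusted p = 0.000892).

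Abcc4 (ENSRNOG00000010064, chromosome 15), or MRP4, exports cyclic nucleotides, prostaglandins and urate and lies in the apical membrane of the proximal tubule. It was the member of subfamily C that rose in both lines. In NRK-52E it stood at 13.1, 17.49, 15 and 13.8 FPM (pH 7.4) and 54.6, 83.3, 68.3 and 40.9 FPM (pH 6.0), and in NRK-49F at 67.1, 61.9, 39.2 and 66.3 FPM (pH 7.4) and 180, 172, 189.5 and 229 FPM (pH 6.0). In each line every acid library was above every library at pH 7.4, with N8 the lowest of the acid NRK-52E libraries and N13 the lowest of NRK-49F at pH 7.4. The rise was log2 fold change 2.03, SE 0.2, edgeR adjusted p = 6.26e-06 in NRK-52E and log2 fold change 1.7, SE 0.15, edgeR adjusted p = 3.59e-06 in NRK-49F. The interaction of 0.32 was not called (SE 0.27, edgeR adjusted p = 0.321).

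Abcc5 and Abcc10 moved against these exporters and fell in both lines. Abcc5 (ENSRNOG00000029178, chromosome 11), another exporter of cyclic nucleotides, stood at 83.3, 87.1, 106 and 95.53 FPM (pH 7.4) and 50.9, 56.1, 61.48 and 54.8 FPM (pH 6.0) in NRK-52E, and at 32.7, 34.9, 30.8 and 38.54 FPM (pH 7.4) and 18.8, 17.7, 19.2 and 20.7 FPM (pH 6.0) in NRK-49F. No pH 6.0 library reached the pH 7.4 libraries of its line, and the acid NRK-49F libraries were the lowest of all 16. Abcc5 fell in NRK-52E (log2 fold change -0.76, SE 0.1, edgeR adjusted p = 7.21e-05) and in NRK-49F (log2 fold change -0.86, SE 0.11, edgeR adjusted p = 3.79e-05). Abcc10 (ENSRNOG00000018863, chromosome 9), an exporter of lipophilic drugs, stood at 19.3, 18.48, 17 and 17.47 FPM (pH 7.4) and 5.81, 8.05, 8.98 and 8.56 FPM (pH 6.0) in NRK-52E. Its values in NRK-49F were 15.7, 16.3, 14.8 and 19.7 FPM (pH 7.4) and 9.34, 8.02, 10.4 and 9.63 FPM (pH 6.0). Again the groups were separate in each line. Abcc10 fell in NRK-52E (log2 fold change -1.22, SE 0.15, edgeR adjusted p = 4.29e-05) and in NRK-49F (log2 fold change -0.84, SE 0.14, edgeR adjusted p = 0.000279). Neither interaction was called, 0.09 for Abcc5 and -0.39 for Abcc10 (edgeR adjusted p = 0.628 and 0.124).

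Abcc9 (ENSRNOG00000036960, chromosome 4) encodes SUR2, a regulatory subunit of ATP-sensitive potassium channels and no transporter. It was counted almost only in NRK-52E, at 13.4, 14.54, 17.4 and 14.4 FPM (pH 7.4) and 10, 9.75, 7.79 and 9.4 FPM (pH 6.0), and in NRK-49F it stood at 0, 0, 0.132 and 0 FPM (pH 7.4) and 0.0886, 0.199, 0.0325 and 0.125 FPM (pH 6.0). The NRK-52E groups were separate, and Abcc9 fell there (log2 fold change -0.71, SE 0.15, edgeR adjusted p = 0.00147). It was not tested for pH in NRK-49F, where its counts were too low, and the interaction of -2.46 was not called (SE 0.87, edgeR adjusted p = 0.0254), though it was without N13, at -4.98, and at an adjusted p below 0.05. Of its channel partners, Kcnj8 averaged 0.0681 FPM in NRK-52E at pH 7.4 and 0.0741 FPM at pH 6.0, and Kcnj11 0.0102 and 0.666 FPM, and neither passed the filter there.

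**Figure D3:**
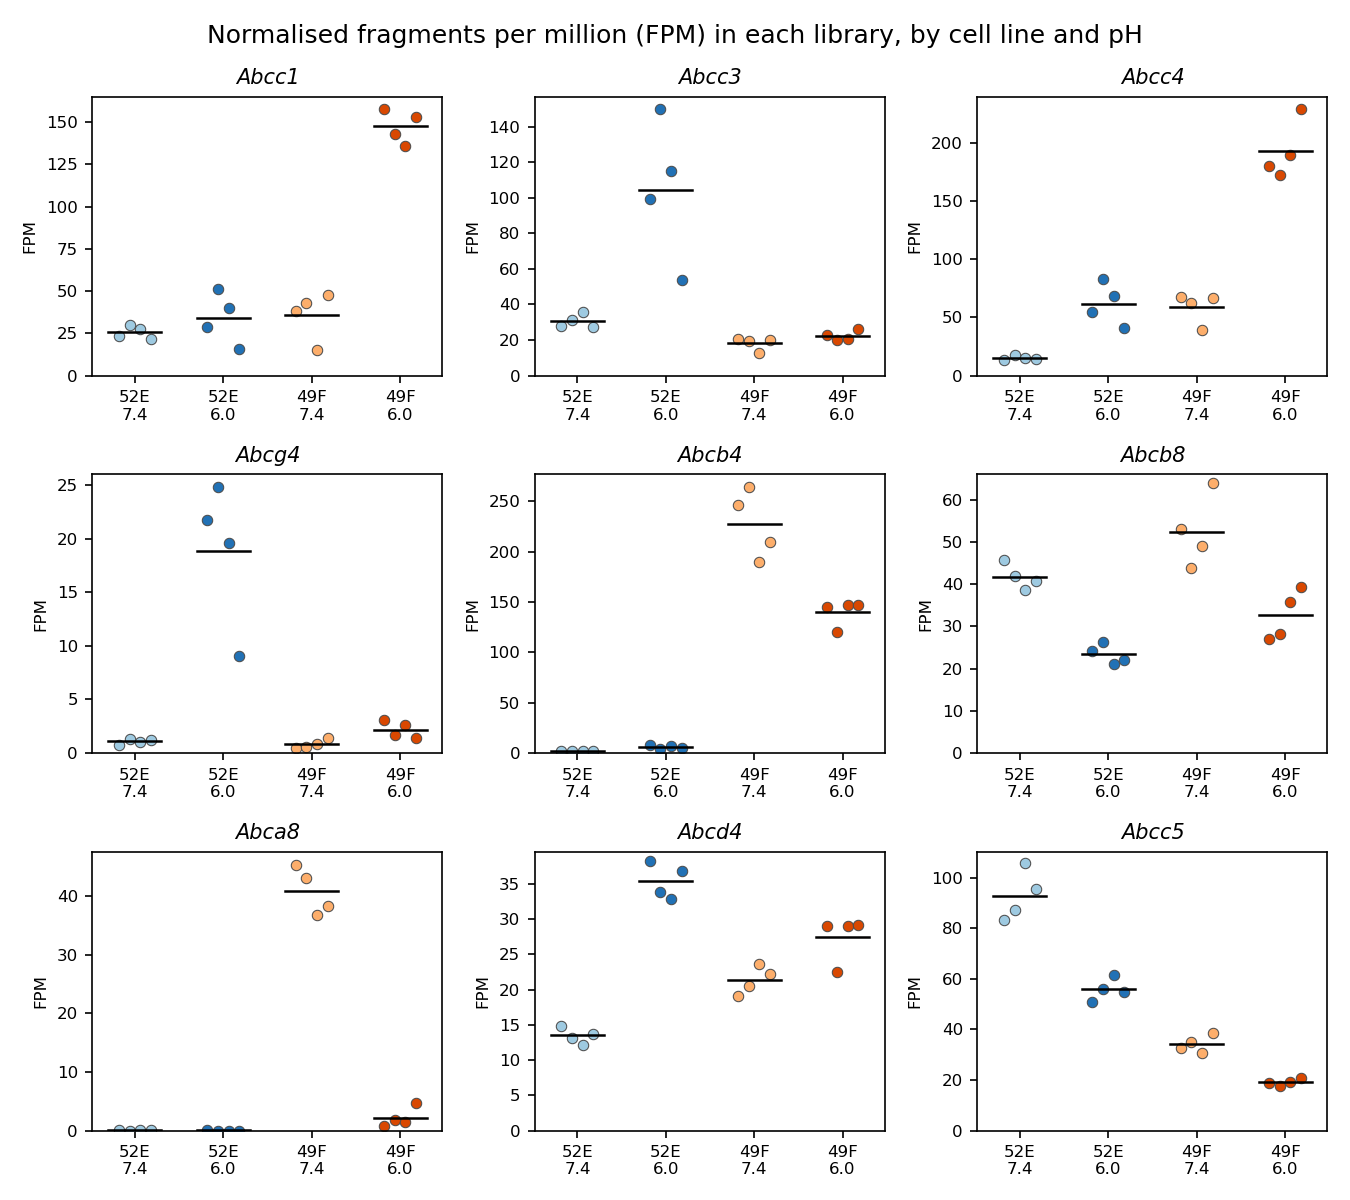
FPM of 9 members in each of the 16 libraries, with cell line and pH on the horizontal axis, one point per library, the mean of 4 as a line and an own vertical scale from 0 for each gene. Abcc1 at pH 6.0 lies between 15.8 and 51 FPM for NRK-52E, whereas NRK-49F spans 136 to 158 FPM, and Abcb4 moves up in NRK-52E and down in NRK-49F.

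Among the drug and sterol transporters of subfamily G, Abcg4 stood apart. Abcg4 (ENSRNOG00000008862, chromosome 8) is known as a sterol exporter of the nervous system. In NRK-52E it stood at 0.75, 1.35, 1.04 and 1.19 FPM (pH 7.4) and 21.7, 24.8, 19.6 and 9.07 FPM (pH 6.0). Each acid library was well above the pH 7.4 libraries, N8 again least. Abcg4 rose (log2 fold change 4.08, SE 0.33, edgeR adjusted p = 1.77e-06), and without N8 the value was 4.31. In NRK-49F it stood at 0.514, 0.556, 0.856 and 1.38 FPM (pH 7.4) and 3.06, 1.66, 2.57 and 1.41 FPM (pH 6.0). These groups did not overlap, but the lowest acid library exceeded the highest pH 7.4 library by little. The difference was log2 fold change 1.35, SE 0.38, edgeR adjusted p = 0.0104, with a DESeq2 adjusted p of 0.00352, and so missed the threshold in edgeR. It was called without N14, at 1.74 (edgeR adjusted p = 0.00438), and without N16, at a fold of 2.87 (edgeR adjusted p = 0.00603). It was also called with DESeq2 alone, an adjusted p below 0.05, library totals, no filter, the filter of at least 1 CPM, all 16 libraries in one fit or only the libraries with 20 as the second number in their column names. Over all alternatives its edgeR adjusted p lay between 0.00248 and 0.259. The interaction was 2.74 (SE 0.52, edgeR adjusted p = 0.000284).

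The other counted members of subfamily G were low. Abcg2 (ENSRNOG00000007041, chromosome 4), or BCRP, which exports urate and many drugs, stood at 2.01, 2.29, 1.62 and 2.19 FPM (pH 7.4) and 2.81, 2.38, 2.91 and 3.53 FPM (pH 6.0) in NRK-52E. All acid libraries were higher, but the difference was not called (log2 fold change 0.5, SE 0.22, edgeR adjusted p = 0.0633). NRK-49F held 2 counts of Abcg2 in N9 and none in its other libraries. Abcg3l1 and Abcg3l3 lie together on chromosome 14, are similar in sequence and may share multi-mapping fragments, so their separate values are uncertain. Abcg3l1 averaged 3.27 FPM in NRK-49F at pH 7.4 and 4.29 FPM at pH 6.0, Abcg3l3 0.741 and 1.53 FPM, and neither was called for pH (edgeR adjusted p = 0.157 and 0.0147), except Abcg3l3 in that line at an adjusted p below 0.05.

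Subfamily B joins the phospholipid transporter Abcb4 with transporters of mitochondria and lysosomes. Abcb4 (ENSRNOG00000008012, chromosome 4), which moves phosphatidylcholine to the outer leaflet of the plasma membrane, was the only member called in opposite directions in the 2 lines. In NRK-52E it stood at 1.69, 1.97, 2.4 and 1.67 FPM (pH 7.4) and 8.01, 4.27, 7.01 and 4.98 FPM (pH 6.0). The NRK-49F values were 246, 264, 189.6 and 209.9 FPM (pH 7.4) and 145, 120.3, 147 and 147 FPM (pH 6.0). The groups were separate in each line, and the acid libraries were the higher ones in NRK-52E and the lower ones in NRK-49F. Abcb4 rose in NRK-52E (log2 fold change 1.62, SE 0.25, edgeR adjusted p = 0.000199) and fell in NRK-49F (log2 fold change -0.72, SE 0.11, edgeR adjusted p = 0.000253), with an interaction of 2.32 (SE 0.25, edgeR adjusted p = 7.85e-07). Since the level in NRK-52E was 0.849% of that in NRK-49F at pH 7.4 and 4.34% at pH 6.0, other genes of high level in NRK-49F were read beside it. Pdgfra in NRK-52E was 0.0731% of its NRK-49F level at pH 7.4 and 0.0153% at pH 6.0, and Col1a1 0.38% and 0.218%, both lower at pH 6.0 while Abcb4 was higher. Abca9, another gene of NRK-49F, was higher in NRK-52E at pH 6.0, as Abcb4 was. It stood at 0.0622% and 1.38% of its NRK-49F level, on few counts in NRK-52E. The fibroblast marker Twist1 averaged 1.41 against 94.7 FPM at pH 7.4 and 1.64 against 73.2 FPM at pH 6.0. Its NRK-52E values at pH 7.4 and pH 6.0 overlapped. Of the 7 fibroblast markers tested for pH in NRK-52E, 5 fell and none rose. The list is no measure of carried-over cells, since NRK-52E had levels of its own. Col3a1, for example, averaged 6221 FPM in NRK-52E and 458 FPM in NRK-49F at pH 7.4. A part of carried-over fibroblasts in the Abcb4 values was not tested.

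Among the mitochondrial members, Abcb6 rose and Abcb8 fell in both lines. Abcb8 (ENSRNOG00000008557, chromosome 4), of the inner mitochondrial membrane, stood at 45.8, 42, 38.7 and 40.7 FPM (pH 7.4) and 24.3, 26.4, 21.1 and 22 FPM (pH 6.0) in NRK-52E. In NRK-49F its values were 53, 43.9, 49.1 and 64 FPM (pH 7.4) and 27.1, 28.3, 35.8 and 39.4 FPM (pH 6.0). All acid libraries were below those at pH 7.4. Abcb8 fell in NRK-52E (log2 fold change -0.85, SE 0.11, edgeR adjusted p = 4.07e-05) and in NRK-49F (log2 fold change -0.7, SE 0.14, edgeR adjusted p = 0.0013).

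Abcb6, a porphyrin transporter, averaged 40.2 ± 2.9 and 68.1 ± 5.92 FPM (SD, n = 4) in NRK-52E at pH 7.4 and 6.0. In NRK-49F the averages were 33.5 ± 2.94 and 57.5 ± 7.44 FPM. It rose by nearly the same log2 fold change in both lines, 0.74 in NRK-52E (SE 0.1, edgeR adjusted p = 5.39e-05) and 0.77 in NRK-49F (SE 0.11, edgeR adjusted p = 0.000126). Abcb10, which is needed for haem synthesis, was not called in either line, at -0.3 and 0.15 (edgeR adjusted p = 0.0629 and 0.261). The lysosomal peptide transporter Abcb9 stayed under 3 FPM in every library and was not called either.

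The A subfamily holds transporters of sterols and phospholipids. Abca2 (ENSRNOG00000014268, chromosome 3), of late endosomes and lysosomes, stood at 131, 144, 149.9 and 129 FPM (pH 7.4) and 78, 101, 90 and 70.6 FPM (pH 6.0) in NRK-52E. In NRK-49F it stood at 113, 114, 88.6 and 128 FPM (pH 7.4) and 139, 120.2, 134 and 156 FPM (pH 6.0). The NRK-52E groups were separate with the acid libraries low, and the NRK-49F groups overlapped. Abca2 fell in NRK-52E (log2 fold change -0.73, SE 0.11, edgeR adjusted p = 0.000161), was not called in NRK-49F except at an adjusted p below 0.05 (log2 fold change 0.29, SE 0.11, edgeR adjusted p = 0.0492) and had an interaction of -1.03 (SE 0.17, edgeR adjusted p = 8.55e-05). Abca3 (ENSRNOG00000050057, chromosome 10), known for loading surfactant lipids into lamellar bodies of the lung, stood at 56.8, 68.5, 60.6 and 54.2 FPM (pH 7.4) and 37.1, 38.4, 36.2 and 29 FPM (pH 6.0) in NRK-52E. Its values in NRK-49F were 54.8, 50.48, 41.2 and 63.2 FPM (pH 7.4) and 45.2, 41.1, 45.8 and 44.4 FPM (pH 6.0). Again the NRK-52E groups were separate and the NRK-49F groups overlapped. Abca3 fell in NRK-52E (log2 fold change -0.79, SE 0.11, edgeR adjusted p = 0.000115), whereas the difference in NRK-49F was not called (log2 fold change -0.26, SE 0.12, edgeR adjusted p = 0.077). The interaction of -0.54 was not called (SE 0.17, edgeR adjusted p = 0.0153), so a difference between the lines was not shown, although it was called without N3, at -0.68, without N14, at -0.65, with DESeq2, with library totals and at an adjusted p below 0.05.

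Abca5 (ENSRNOG00000004378, chromosome 10), a lysosomal member, rose in both lines, less firmly in NRK-52E. The NRK-49F values were 8.63, 9.96, 4.87 and 6.25 FPM (pH 7.4) and 29.7, 20.4, 23.52 and 21.1 FPM (pH 6.0), with every acid library above every pH 7.4 library (log2 fold change 1.66, SE 0.21, edgeR adjusted p = 4.63e-05). In NRK-52E it stood at 2.81, 5, 6.01 and 5.66 FPM (pH 7.4) and 10.9, 13.8, 14 and 5.64 FPM (pH 6.0). N8 lay among the pH 7.4 libraries there and the other acid libraries above them. The call in NRK-52E (log2 fold change 1.16, SE 0.31, edgeR adjusted p = 0.00626) was lost without any one of N1 to N7, with a log2 fold change from 0.96 without N1 to 1.25 without N5 and an edgeR adjusted p from 0.0103 to 0.0195. Without N8 it was kept, at 1.37. With library totals it was lost too, as it was with the second number in the column names as a covariate and with only the libraries of number 22.

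Abca8 and Abca9 were genes of NRK-49F. Abca8 (ENSRNOG00000004040, chromosome 10), a member linked to sterol efflux, stood at 45.4, 43.2, 36.8 and 38.4 FPM (pH 7.4) and 0.841, 1.79, 1.4 and 4.69 FPM (pH 6.0) in NRK-49F. At pH 6.0 it was down to a few FPM in each library, N16 highest. Abca8 fell (log2 fold change -4.19, SE 0.37, edgeR adjusted p = 2.99e-06), and without N16 the value was -4.97. NRK-52E held 4 counts of Abca8 over its libraries at pH 7.4 and 1 count at pH 6.0. Its neighbour Abca9 (ENSRNOG00000059326, chromosome 10) stood at 18.3, 19.51, 10.3 and 17.8 FPM (pH 7.4) and 21, 19.3, 10.6 and 12.6 FPM (pH 6.0) in NRK-49F, where the groups overlapped and the difference was not called (log2 fold change -0.07, SE 0.24, edgeR adjusted p = 0.813). In NRK-52E, Abca9 had 1 count over the libraries at pH 7.4 and between 0.0899 and 0.489 FPM at pH 6.0, so the called interaction of 3.7 (SE 1.09, edgeR adjusted p = 0.00902) rests on values near 0. It ranged from 3.01 without N3 to 5.26 without N2 and was lost with library totals and without any one of N1, N2, N3, N5, N6, N7, N9, N10, N14, N15 and N16.

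Abca5, Abca6, Abca8, Abca8a and Abca9 all lie on chromosome 10, and Abca6, Abca8 and Abca9 are known to stand next to each other with Abca5. In NRK-49F these neighbours differed, with Abca5 higher at pH 6.0, Abca8 lower, Abca9 not called and Abca6 at 3 counts in all. Abca8a had 7, 17, 24 and 54 counts in NRK-49F at pH 7.4 and 0, 0, 6 and 2 counts at pH 6.0 and did not pass the filter. Where it was tested, it was called with no filter, with only the libraries of second number 21 and without any one of N9, N11, N12, N15 and N16. Since fragments that map to several places were counted at each, values of Abca8, Abca8a and Abca9 are uncertain to the extent that they share sequence.

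The cholesterol exporter Abca1 was not called in either line, except in NRK-49F with only the libraries of second number 20, at 48.8 and 53.2 FPM (pH 7.4) and 30.51 and 35.9 FPM (pH 6.0). It averaged 34 ± 1.99 and 32.2 ± 6.53 FPM (SD, n = 4) in NRK-52E and 46.8 ± 5.24 and 39.4 ± 9.86 FPM in NRK-49F at pH 7.4 and 6.0, with log2 fold changes of -0.1 and -0.26 (edgeR adjusted p = 0.529 and 0.178). Abca7, a phospholipid transporter, averaged 8.32 and 8.08 FPM in NRK-52E and 35.7 FPM at both values of pH in NRK-49F, and was not called (edgeR adjusted p = 0.723 and 0.921). Abca4, the retinoid transporter of photoreceptors, averaged 14.6 and 16.3 FPM in NRK-52E and was not called there (edgeR adjusted p = 0.404). Abca17 reached at most 20 counts in a library and was not called in NRK-49F (edgeR adjusted p = 0.0164).

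Subfamily D imports fatty acids into peroxisomes, apart from the lysosomal Abcd4. Abcd2, an importer of very long chain fatty acids, was low, with 18, 22, 12 and 15 counts in NRK-49F at pH 7.4, 6, 3, 9 and 8 counts at pH 6.0 and 1 count in all of NRK-52E. Abcd2 fell in NRK-49F (log2 fold change -1.76, SE 0.38, edgeR adjusted p = 0.00194), but the call was lost in DESeq2 without any one of N9, N10, N12, N15 and N16, with log2 fold changes from -1.62 to -1.83. It was also lost with the filter of at least 1 CPM and with only the libraries of second number 20 or 21. Abcd3, the major peroxisomal membrane protein of the family, lay between 46.6 and 68.6 FPM in all 16 libraries and was not called in either line (edgeR adjusted p = 0.0506 and 0.36). In NRK-52E all acid libraries were lower than those at pH 7.4, at 55.2 to 59 FPM beside 61.2 to 68.6 FPM, and the fall was called with library totals. Abcd4, which passes cobalamin out of lysosomes, averaged 13.47 ± 1.11 FPM at pH 7.4 and 35.4 ± 2.59 FPM at pH 6.0 (SD, n = 4) in NRK-52E. It rose there by 1.38 on the log2 scale (SE 0.12, edgeR adjusted p = 2.38e-06). In NRK-49F the averages were 21.3 and 27.4 FPM and the difference of 0.35 was not called (edgeR adjusted p = 0.028) except at an adjusted p below 0.05, with an interaction of 1.02 (SE 0.16, edgeR adjusted p = 5.76e-05).

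The ribosome-associated members rose in both lines, save Abcf3. Abce1, which splits ribosomes for recycling, had 130.2, 129, 135 and 137 FPM (pH 7.4) and 239.6, 273, 267 and 216 FPM (pH 6.0) in NRK-52E and 65.3, 63.4, 66.6 and 56.2 FPM (pH 7.4) and 133, 129, 114 and 112 FPM (pH 6.0) in NRK-49F. The groups were separate in each line, and the rise was nearly the same, 0.88 in NRK-52E (SE 0.09, edgeR adjusted p = 6.39e-06) and 0.94 in NRK-49F (SE 0.1, edgeR adjusted p = 1.28e-05). Abcf1, a factor of translation initiation, averaged 99.9 and 201 FPM in NRK-52E and 68.3 and 93.6 FPM in NRK-49F at pH 7.4 and 6.0. Its rise was 0.99 in NRK-52E (SE 0.09, edgeR adjusted p = 3.69e-06) and 0.44 in NRK-49F (SE 0.11, edgeR adjusted p = 0.00618), where N16 at 79.1 FPM lay just under N14 at 79.5 FPM. Abcf2 averaged 63.7 and 96.6 FPM in NRK-52E and 78.1 and 107 FPM in NRK-49F, and rose by 0.58 (SE 0.09, edgeR adjusted p = 0.000253) and 0.44 (SE 0.11, edgeR adjusted p = 0.00374). In NRK-49F, the calls of Abcf1 and Abcf2 were lost without any one of N9, N10, N11, N12 and N15, with values from 0.38 to 0.44 for Abcf1 and from 0.4 to 0.45 for Abcf2. The interaction of Abcf1, 0.54 (SE 0.15, edgeR adjusted p = 0.00609), was lost with library totals and without any library but N8, N9, N10 and N11, in the latter with values from 0.42 to 0.55. Abcf3 stood between 67.3 and 91.2 FPM in all libraries, with log2 fold changes of 0.04 and 0.01 that were not called (edgeR adjusted p = 0.691 and 0.957).

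The pH comparisons of the 2 lines use separate libraries, so their calls can be set side by side. The lines shared wells and medium, so libraries of the 2 lines may come from the same co-cultures. The labels do not pair them, and the 2 comparisons may not be independent. Of 25 members tested in both lines, 11 were called in both (44%), beside 23.8% of the 12470 genes tested in both. Of these, 7 rose in both, among them Abca5, Abcb6, Abcc4, Abce1, Abcf1 and Abcf2, and 3 fell in both, namely Abcb8, Abcc5 and Abcc10. Of the 2962 genes called in both lines, 1180 rose in both and 1248 fell in both. Only Abcb4 had opposite directions among the members, beside 534 of the 2962 genes called in both. Called in NRK-52E alone were 5 of the 25, called in NRK-49F alone 2, and in neither 7. Over the 12470 genes these counts were 4058, 1699 and 3751. Under the other settings common to both comparisons, a check chosen after the data were seen, 9 to 12 members were called in the same direction and 1 to 3 in opposite ones.

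Whether the pH effect itself differed between the lines was tested as an interaction of cell line and pH in edgeR over all 16 libraries. The fit took libraries of the 2 lines as independent, although the lines were grown in shared wells. Positive values mean a higher pH effect in NRK-52E. Of 33 members tested, 9 had a called interaction (27.3%), beside 37.0% of the 14679 genes tested. Of these 7 were positive (21.2%), beside 19.4% of all genes, and 2 were negative (6.06%), beside 17.6%. The positive ones included Abcb4, Abcg4, Abca9, Abcc3, Abcd4 and Abcf1, and the negative ones Abcc1 and Abca2. With library totals the all-gene median interaction moved from -0.01 to -0.25, and the split became 5 positive and 5 negative members (50% in place of 77.8% positive) and 33.7% in place of 52.3% positive among all genes called.

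Between the lines at pH 7.4, a few members marked one line almost alone. Abcb4, Abca8 and Abca9 were nearly confined to NRK-49F by their counts, while Abca4, Abca16, Abcc9 and Abcg2 were nearly confined to NRK-52E. Of 33 members tested, 22 were called (66.7%), beside 66.6% of the 14026 genes tested. Of these, 13 were higher in NRK-52E (39.4%), beside 33.3% of all genes, and 9 were lower (27.3%), beside 33.3%. The median difference on the log2 scale was 0.2 over the members and 0.03 over all genes. Library totals moved the all-gene median to 0.34 and the split to 15 higher and 6 lower members (71.4% in place of 59.1% higher), with 65.7% in place of 50% higher among all genes called.

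At pH 6.0 Abcb4, Abca8 and Abca9 were again low in NRK-52E, and Abca4, Abca16, Abcc9 and Abcg2 low in NRK-49F. Of 33 tested, 22 were called (66.7%), beside 59.8% of the 13796 genes tested, 11 higher in NRK-52E (33.3%), beside 28.6%, and 11 lower (33.3%), beside 31.3%. The median difference was -0.27 over the members and -0.03 over all genes, the latter 0.12 with library totals, which gave 13 higher and 10 lower members and 55% in place of 47.7% higher among all genes called. The median size of the difference was 1.3 over the members and 0.79 over all genes, beside 0.63 and 0.73 at pH 7.4. These comparisons share libraries with the pH comparisons, so their calls are not set against those.

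The separation of Abcb4 between the lines was -6.78 on the log2 scale at pH 7.4 (SE 0.16, edgeR adjusted p = 1.68e-11) and -4.55 at pH 6.0 (SE 0.2, edgeR adjusted p = 1.41e-09), negative values being lower in NRK-52E. Counts of several other members were so low in one line that a fitted fold is no measure. Abca8 was higher in NRK-49F at pH 7.4 by a ratio of 929 (exact 95% counting interval 362 to 3411) and at pH 6.0 by 201 (35.7 to 7955). For Abca9 at pH 7.4 the ratio was 1533 (275 to 60608), its single NRK-52E count being in N2. Abcc9 was higher in NRK-52E by 584 (161 to 4824) at pH 7.4, both NRK-49F counts being in N13, and by 91.9 (49.7 to 192) at pH 6.0. Abcg2 was higher in NRK-52E by 78.7 (21.5 to 655) at pH 7.4 and, against no count in NRK-49F, at least 22.2-fold higher at pH 6.0 by a floor of 3 counts per library. These intervals and floors cover counting error only. The fitted log2 differences of such members hang on single libraries, at pH 7.4 moving from -9.86 to -11.37 without N2 for Abca9, from 8.95 to 11.39 without N13 for Abcc9 and from 6.07 to 8.49 without N9 for Abcg2. At pH 6.0 they moved from -7.01 to -8.73 without N3 and -6.26 without N16 for Abca8, and from -6.25 to -6.86 without N3 for Abca9.

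Abca16 (ENSRNOG00000015783, chromosome 1), of the rodent group of Abca14, Abca15 and Abca16 on chromosome 1, stood at 2.01, 2.29, 2.61 and 3.14 FPM (pH 7.4) and 1.96, 1.89, 2.62 and 2.77 FPM (pH 6.0) in NRK-52E. NRK-49F had 1 count, in N11 at pH 6.0. It was at least 15.7-fold higher in NRK-52E at pH 7.4, and higher by a ratio of 235 (41.6 to 9319) at pH 6.0, where the fitted 7.22 became 8.74 without N11, and it was not called for pH (log2 fold change -0.14, SE 0.24, edgeR adjusted p = 0.621). Abca4 was higher in NRK-52E at both values, by 6.02 (SE 0.31, edgeR adjusted p = 9.47e-09) and 5.1 (SE 0.42, edgeR adjusted p = 3.58e-07), and without N10 the first was 6.74. Abca7 and Abcc4 were lower in NRK-52E at both values, Abca7 at 23.3% and 22.6% and Abcc4 at 25.3% and 32.1% of the NRK-49F mean. Abcc5 and Abce1 were higher in NRK-52E at both, by folds of 2.87 and 2.89 for Abcc5 and 2.24 and 2.02 for Abce1.

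Some members were called between the lines at one pH only, or in opposite directions at the 2 values. Abcc1 was lower in NRK-52E at pH 6.0 by a log2 difference of -2.14 (SE 0.27, edgeR adjusted p = 1.56e-05), and was not called at pH 7.4, at -0.4 (SE 0.27, edgeR adjusted p = 0.203), except without N13, at -0.65. Abcg4 was higher in NRK-52E at pH 6.0 by 3.09 (SE 0.34, edgeR adjusted p = 5.3e-06) and not called at pH 7.4, at 0.43. Abca2 was higher in NRK-52E at pH 7.4, at 0.4, and lower at pH 6.0, at -0.71, and the first call was lost without any one of N2, N5, N9 and N10, with values from 0.35 to 0.41, and with all 16 libraries in one fit. The interactions given above are the tests of these differences. Other calls at pH 7.4 were small, such as Abca1 at -0.38, lost without any one of N1, N2, N6, N9 and N10, with library totals and in one fit of all libraries. Abcb6 at 0.35 was lost without N1, N5 or N10 and in that one fit, and Abcg3l1 at -0.76 without any one of 7 libraries and with library totals. Abcd4, at -0.58, was lost with library totals. At pH 6.0 it was not called but lay on the other side, at 0.35 with separate groups, and was called as higher in NRK-52E with DESeq2 alone, at an adjusted p below 0.05, with library totals and in one fit of all libraries. At pH 6.0, Abcb10 at -0.53 was lost without N3, N4, N11 or N15, with library totals and with DESeq2 size factors. Abcb8 was called without N11, at -0.58, with DESeq2 alone, at an adjusted p below 0.05 and in one fit of all libraries, and Abcb9 without N4, at -1.68, and at an adjusted p below 0.05. Abcf2 was called at pH 7.4 without N1, at -0.3, and Abca3 and Abcc10 there with library totals. With the filter of at least 1 CPM, the calls of Abcd2 at pH 7.4 and Abca8 at pH 6.0 were lost.

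Within groups, a few libraries stood low for many members. N13 was the lowest of its group for 17 of the 30 members tested in NRK-49F and N12 for 16 of 30. N1 and N8 were each the lowest of their group for 12 of the 29 members tested in NRK-52E. N8 was the lowest acid NRK-52E library for Abcc1 and for Abcc3, Abcc4, Abcg4 and Abca5, which rose. Marker sums in N8 were 360.2 FPM for the 10 epithelial markers, 2239.7 for fibroblast and 7.1 for leukocyte markers. The other acid NRK-52E libraries had 361 to 430.4, 2871 to 3566 and 4.59 to 6.16 FPM. Proximal tubule markers in N8 summed to 35.2 FPM, beside 24.1 to 29.9 FPM, and endothelial markers to 8.04 FPM, beside 5.75 to 7.51 FPM. The list of glutathione genes, described below, summed to 2380 FPM, beside 1604 to 1778 FPM. Gstp1 led this sum and ran from 553 to 1252 FPM over the acid NRK-52E libraries. The part of these sums in the result was not tested.

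Marker lists were read for the pH effect too. For comparison, 28.2% of all genes tested rose and 28.5% fell in NRK-52E, and 18.4% rose and 19.4% fell in NRK-49F, and lists of so few genes were not tested against these shares. Of 10 epithelial markers, 6 were tested in NRK-52E, where 5 fell and Tjp3 rose, and 3 in NRK-49F, where 1 fell. Of 10 proximal tubule markers, 1 of 4 tested fell in NRK-52E, whereas 2 of 6 tested rose and 1 fell in NRK-49F. Of 10 fibroblast markers, 5 of 7 tested fell in NRK-52E and 4 of 8 in NRK-49F. Of 4 leukocyte markers, 1 of 2 tested rose in NRK-52E, and in NRK-49F Cd68 rose, from 81.2 to 243 FPM. Of 3 endothelial markers in the count table, only Tek was tested, which fell in NRK-52E from 41.1 to 7.02 FPM, and none passed the filter in NRK-49F. Summed epithelial markers, mostly Krt8, were 561, 519, 488 and 552 FPM in NRK-52E at pH 7.4 and 430.4, 361, 392 and 360.2 FPM at pH 6.0, and 826, 787, 950.5 and 844 and 207, 221, 205 and 200.4 FPM in NRK-49F. Summed fibroblast markers were 7254, 7127, 6887 and 6823 FPM and 3566, 3349.8, 2871 and 2239.7 FPM in NRK-52E, mostly Col3a1, and 13775, 14263, 14738 and 15116 and 12036, 11556, 12087 and 10272 FPM in NRK-49F, led by Vim and Col1a1. The part of these markers in the ABC changes was not tested.

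Genes that work with ABC transporters were read from lists, beside the same shares of all genes. Of the interactions over all genes tested, 37.0% were called, 19.4% positive and 17.6% negative, and the counts per list below were not tested against these. Other names for family members gave Tap1, Tap2 and Cftr, of which the peptide transporter genes Tap1 and Tap2, which load class I MHC molecules, were tested. In NRK-52E, Tap1 averaged 20.3 FPM at pH 7.4 and 219 at pH 6.0, and Tap2 36.4 and 104 FPM. Both rose there, by 3.41 and 1.5 on the log2 scale, neither was called in NRK-49F, and both interactions were called as positive. Of 12 genes of sterol efflux and its LXR control, 11 were tested in NRK-52E and 7 rose, among them Apoe, Scarb1 and Srebf1, with a list median of 1. In NRK-49F 3 of 10 rose, among them Scarb1 and Npc1, and 2 fell, Apoe and Pltp, with a median of 0.03, and 6 of the 11 interactions tested were called, 5 of them positive, beside 37.0% and 19.4% of all genes. Apoe, which takes up the lipid that such exporters release, rose by 1.72 in NRK-52E, where Abcg4 rose and Abca1 was not called, and fell by 1.19 in NRK-49F.

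Glutathione conjugation makes substrates of Abcc1. The list read for it also held genes of glutathione synthesis (Gclc, Gclm and Gss), recycling (Gsr) and breakdown (Ggt1). Of the 11 genes of this mixed list tested in each line, 7 rose in NRK-52E, beside 28.2% of all genes, with a median of 0.68. In NRK-49F 8 rose and 1 fell, beside 18.4% and 19.4% of all genes, with a median of 1.13. Gclm rose by 3 in NRK-52E and by 2.06 in NRK-49F, Gclc by 0.84 and 1.92, and the conjugating enzyme gene Gstm1 by 2.27 in NRK-49F, from 58.5 to 286 FPM. Of the 11 interactions 5 were called, beside 37.0% of all genes, 2 positive and 3 negative. Of 9 partners and xenobiotic regulators counted, 6 were tested in each line, of which 2 rose and 2 fell in NRK-52E and 2 fell in NRK-49F, with medians of -0.25 and -0.16. Nfe2l2, an activator of Abcc genes, rose by 0.91 in NRK-52E and fell by 0.37 in NRK-49F, and Pex3, which inserts the D subfamily into peroxisomes, rose in NRK-52E. The list had 2 called interactions of 6, near the share of all genes, one of each sign, Nfe2l2 at 1.27 being the positive one. Of 13 carriers of organic ions in the count table, 4 were tested in NRK-52E, of which 1 rose and 1 fell, and 5 in NRK-49F, of which 1 rose and 3 fell, and 5 of the 6 interactions tested were called, 3 of them positive, beside 37.0% and 19.4% of all genes. The proton-coupled exporter gene Slc47a1 rose in NRK-49F from 2.59 to 18.5 FPM.

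Promoter sequences were taken from RefSeq for build GRCr8, which is not the build of the counts, as 250 bases before the start of each gene, and 39 of the 49 members matched. Those not matched included Abca8a, Abca17, Abcb11, Abcc3, Abcc5, Abcc8, Abcf1 and Abcg1. In these windows 3 motifs were searched on both strands, namely TGACNNNGC, the core of the antioxidant response element, TGATGNAA, the core of the amino acid response element, and CACGTG, an E-box that reads the same on both strands. None of the 3 contains another. The first was in the windows of Abcg5 and Abcg8 and in 11% of the 27457 promoters of the same length, and CACGTG was in those of Abca1, Abca15 and Abcb6 and in 6.18% of all. TGATGNAA was in 3.58% of all promoters and in no matched member. With 10 members unmatched, a share over the family is void. A match of letters is a description and no binding site, and no match says only that the letters are not in this window.

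Of the promoters, 4 are printed from 5′ to 3′ on the minus strand of GRCr8 (RefSeq), each on the strand of its gene, with a motif in capitals. Abcc1 and Abcg4 had the largest rises in NRK-49F and NRK-52E, and Abcc4 and Abcb6 rose in both lines, Abcb6 being the only one of the 4 with a motif, which begins 226 bases before the start. They lie at chr10:1162368-1162617 (Abcc1), chr15:102181365-102181614 (Abcc4), chr8:53523572-53523821 (Abcg4) and chr9:84125501-84125750 (Abcb6).
Abcc1: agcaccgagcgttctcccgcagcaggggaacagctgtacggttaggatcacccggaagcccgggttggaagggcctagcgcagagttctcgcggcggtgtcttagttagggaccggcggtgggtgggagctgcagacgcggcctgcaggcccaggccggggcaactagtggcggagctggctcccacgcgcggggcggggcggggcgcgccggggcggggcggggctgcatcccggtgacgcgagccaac
Abcc4: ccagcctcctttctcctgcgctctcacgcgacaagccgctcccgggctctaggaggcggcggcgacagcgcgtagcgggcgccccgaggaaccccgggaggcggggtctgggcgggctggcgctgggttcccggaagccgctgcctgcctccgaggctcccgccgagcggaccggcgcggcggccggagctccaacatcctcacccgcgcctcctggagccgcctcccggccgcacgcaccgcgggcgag
Abcg4: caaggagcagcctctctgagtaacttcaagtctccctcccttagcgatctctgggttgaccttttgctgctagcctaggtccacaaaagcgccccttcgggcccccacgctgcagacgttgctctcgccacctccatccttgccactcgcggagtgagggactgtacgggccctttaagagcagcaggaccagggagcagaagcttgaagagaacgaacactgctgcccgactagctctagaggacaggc
Abcb6: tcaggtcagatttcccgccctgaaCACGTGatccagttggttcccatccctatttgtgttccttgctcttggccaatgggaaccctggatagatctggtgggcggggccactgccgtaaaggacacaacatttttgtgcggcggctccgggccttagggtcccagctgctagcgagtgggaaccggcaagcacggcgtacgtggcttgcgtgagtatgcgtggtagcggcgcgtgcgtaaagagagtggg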

How the data were processed

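The counts were made and deposited by the authors and are fragments per gene on rat build rn6, from read pairs of poly(A) RNA, with multi-mapping fragments included, by featureCounts. The processing notes name HISAT2 2.1.0 as the aligner, whereas the paper names tophat2. Each library held between 16201084 and 34784862 counts. Groups were 4 libraries each by cell line and pH. FPM is the edgeR count per 1000000 with TMM factors over all 16 libraries. Genes passing filterByExpr were tested with edgeR 4.0.16 (quasi-likelihood) and DESeq2 1.42.0 (Wald) in R 4.3.3 with limma 3.58.1, both checked on simulated data, and called where the adjusted p was below 0.01 in both tools, or in edgeR alone for the interaction. Fold changes and SE are from edgeR.

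Library values are given for Abcc1 and, among members averaging at least 1 FPM in the higher group, for the 4 largest called rises and falls per cell line, the 3 largest and smallest called interactions and the 2 largest called line differences per direction and pH. Some genes, also some that this rule picks, are not reported here singly and count only in totals, sums and medians. Values of other members were described after they were seen. Members, marker lists and the lists of partner genes were chosen with earlier results of these data known. Alternatives were DESeq2 size factors, library totals, no filter, at least 1 CPM in at least 4 libraries, each tool alone, an adjusted p below 0.05, all 16 libraries in one fit, the second number in the column names as covariate or subset, and each library left out. DESeq2 alone was limited to genes tested in edgeR. No 2 libraries of a group were identical (lowest chi-square per degree of freedom 6.41, N2 and N6). The labels do not say whether libraries are separate cultures, and p-values measure the spread between libraries, which may be technical.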

Additional observations from a re-analysis of the deposited data

Results flagged for a closer look

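In 2 places a library lay far from the other 3 of its group. N12 held 120.3 FPM of Abcb4 among the acid NRK-49F libraries, beside 145 to 147 FPM in the others, and N13 held 12.51 FPM of Abcc3 among the pH 7.4 ones, beside 19.7 to 20.3 FPM in the others. Chance gives about 1 in 20 such groups, or 3.2 of the 64 groups of values looked at, and 2 were flagged. The groups share libraries, and N13 and N12 were the lowest of their group for 17 and 16 of 30 members. The groups are thus not independent, so whether 2 is more than chance gives cannot be judged. Groups near 0 with counts in a single library, such as Abcc9 in NRK-49F at pH 7.4, were not flagged. Where such groups are among the 64, the number given for chance is too high.

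The interaction test in edgeR called a difference in the pH effect between the cell lines for 9 members. Among those reported here, it was higher in NRK-52E for Abcg4 (2.74, adjusted p = 0.000284), Abcb4 (2.32, adjusted p = 7.85e-07), Abcc3 (1.46, adjusted p = 0.000892), Abcd4 (1.02, adjusted p = 5.76e-05) and Abcf1 (0.54, adjusted p = 0.00609). It was also higher for Abca9 (3.7, adjusted p = 0.00902), which was close to 0 counts in NRK-52E. The call of Abca9 was lost in 12 of the 23 alternatives. That of Abcf1 was lost with library totals and when any one library other than N8, N9, N10 and N11 was left out. Neither is a firm difference between the lines. The pH effect was lower in NRK-52E for Abcc1 (-1.66, adjusted p = 0.00306) and Abca2 (-1.03, adjusted p = 8.55e-05). Since NRK-52E grew on filters and NRK-49F on plastic, an effect of the line and of the support cannot be told apart.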

How the results depend on the processing

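No called value changed direction under any alternative. Of the 17 members called for pH in NRK-52E, the other settings on all libraries gave 16 to 18, and leaving out each library gave 16 to 19. Of the 15 in NRK-49F, they gave 15 to 19 and 13 to 16. The comparison of lines gave 18 to 24 members at pH 7.4 and 21 to 26 at pH 6.0. The meaning of the second number in the column names is not given. With it as a covariate, 16 members were called for NRK-52E, 15 for NRK-49F and 9 for the interaction. With only the libraries of number 22 in NRK-52E, 6 members were called, 5 higher and 1 lower, whereas the equally few libraries of number 21 gave 15, and among all genes 2820 and 5244 were called. With number 21 in NRK-49F, 7 members were called, 4 higher and 3 lower, and with number 20, 16, and among all genes 1980 and 4680. The drop is thus found over all genes too. Members that lost their call were Abca2, Abca3, Abca5, Abcb4, Abcb6, Abcb8, Abcc3, Abcc9, Abcc10 and Abcf2, among others, with number 22 in NRK-52E, Abcc9 and Abcf2 with number 21 there, and Abcb4, Abcb6, Abcb8, Abcc1, Abcc5, Abcc10, Abcd2, Abcf1 and Abcf2 with number 21 in NRK-49F. With number 20 in NRK-49F, Abcd2 lost its call and Abca1 and Abcg4 gained one. The cause of the difference was not tested. Abcc1 lost its call in NRK-49F with number 21, with an edgeR adjusted p of at most 0.00255 over all alternatives. The library numbers N1 to N16 are not shared between groups and pair no libraries, and the covariate is the only blocked fit.

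For the interaction, 2 members were lower in NRK-52E, and 4 with DESeq2, 6 at an adjusted p below 0.05 and 5 with library totals, while leaving out each library gave 2 to 4. The additional members included Abca3, at an adjusted p below 0.05 also Abcb10 and Abcc9 and with library totals Abcb10, and the cause was not tested.

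All members are limited by depth where counts are few, as for the 15 not tested. The data are RNA of 2 cell lines at one time point, so neither protein, transport nor kidney tissue was measured. Cell line and support changed together, libraries of a group may not be separate cultures, and near-identical copies share fragments.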
